A study of Mus musculus with 8 samples.

Results

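Loss of IL-15 was examined in the 4 of 8 tumor arrays that carried less macrophage RNA and more neutrophil RNA than the other 4. These 4 arrays were chosen by measurement and not by label, as those in which the probe set of C1qa, a complement subunit made by macrophages, lay below 9 on the log2 scale. They are 2 IL-15-/- and 2 IL-15+/+ arrays, each from the tail tumor of a different mouse. In replicates 1 and 2 the C1qa signal was 8.06 and 7.94 in mice with IL-15 and 7.68 and 8.16 in mice without it. The nearest array left out held it at 10.10, so no array lay near the threshold. Of the IL-15-/- arrays, that of replicate 1 carries the label CD16/32HI, and the other 3 arrays are labelled CD16/32LO. The array of the same mouse labelled CD16/32LO held C1qa at 10.73, so these 2 arrays go against the order of the other 3 mice, and whether their labels were exchanged was not tested. Values given by label below depend on it. For brevity they are called the low-C1qa arrays below, and the other 4 the high-C1qa arrays.

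All mice were TAX-LUC mice, which carry the Tax oncogene behind the human granzyme B promoter together with a luciferase reporter driven by the viral long terminal repeat that Tax activates. The IL-15+/+ group and the IL-15-/- group differ by label only in IL-15, and both carry Tax and luciferase. The transgenic line was of mixed C57BL/6 and FVB background and was crossed to IL-15-/- mice kept on C57BL/6. Mice of replicate 1 were 14 months old and mice of replicate 2 were 12 months old in both genotypes. Tail tumors were homogenized, stained for CD16/32 and sorted into CD16/32HI cells, labelled malignant, and CD16/32LO cells, labelled tumor infiltrating. The study describes the former as rich in malignant large granular lymphocytes and the latter as rich in neutrophils. Values are RMA signals on the log2 scale, so that a difference of 1 is a doubling of signal. Differences between arrays are taken only within the same probe set.

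IL-15 is a cytokine that is displayed on the surface of producing cells by its receptor alpha chain and is received by cells that carry the IL-2 receptor beta chain and the common gamma chain. Natural killer (NK) cells and memory CD8 T cells depend on it for survival, and it raises their granzymes and killing. Neutrophils are short-lived phagocytes that enter tumors in large numbers and make IL-1, CXC chemokines and proteases. A sorted fraction rich in neutrophils can also hold lymphocytes, dendritic cells and macrophages, and a bulk array reads them together.

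The markers put neutrophil RNA in all 4 arrays. Cxcr2, the neutrophil chemokine receptor, lay at 12.21 to 12.62 in the low-C1qa and at 8.43 to 9.93 in the high-C1qa arrays, and Csf3r, the receptor for granulocyte colony-stimulating factor, at 10.37 to 10.74 and 7.15 to 7.46. Macrophage RNA was lower but present, with Mrc1 at 8.38 to 8.83 against 11.19 to 11.45 and Csf1r at 8.89 to 9.20 against 9.75 to 10.75. These values describe how the arrays were chosen. Il15 itself was at 6.42 and 6.88 in the IL-15+/+ and at 6.31 and 6.54 in the IL-15-/- arrays, a difference of -0.22 with overlapping values. By the study's methods the cassette that inactivates the gene leaves most of the sequence read by this probe set, so it does not check the genotype. Xist was at 10.08 and 10.75 in the IL-15-/- and at 4.26 and 3.92 in the IL-15+/+ arrays, so that sex and genotype cannot be told apart, and the X and Y chromosomes were left out of the tests. The median over the probe sets tested was 5.79 in the IL-15+/+ array of replicate 2 and 6.01 to 6.06 in the others. Accordingly the median log2 difference over all 20966 probe sets was 0.125 (0.001 in replicate 1 and 0.249 in replicate 2), and centring the arrays on their medians brought it to 0.034. Exactly equal values, 11 to 106 a pair of arrays, occurred only among the 4 arrays of replicate 1 and, in replicate 2, between the arrays of a genotype. No label names normalization sets, but if these groups of arrays were normalized separately, genotype and set cannot be told apart in replicate 2, and the difference in replicate 1 is the value within a set.

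Between IL-15-/- and IL-15+/+ low-C1qa arrays, 17 genes were called lower and 0 higher. Of the 17, 9 belong to the lists of NK cell, cytotoxic granule and T cell receptor genes. Those lists hold 19, 20 and 22 measured genes, among 20966 probe sets tested, and were chosen with earlier results of these data known. The 9 are granzyme A, the chemokine Xcl1, the granule protein Nkg7, the lectin-like receptors Klrc1, Klrd1 and Klrk1, both chains of CD8 and the CD3 gamma chain. Signals of the 17 were 2.53-fold to 86.8-fold lower in IL-15-/- arrays. Calls were made with limma at a Benjamini-Hochberg adjusted p under 0.05 over 20966 probe sets, with the spread estimated from all 8 arrays, and 0.0811% of the probe sets were called lower and 0.0% higher. At an unadjusted p under 0.05 limma listed 247 lower and 607 higher, 4.07% of the probe sets in all. A 1-way comparison of averages on the 4 arrays alone, the kind the study used, listed 836 at an unadjusted p under 0.05 and 0 after Benjamini-Hochberg. The mouse, as named by genotype and replicate number, is the unit of replication, with 2 against 2. The fit nevertheless took the 8 arrays as independent, though each mouse gave a low-C1qa and a high-C1qa array. With the mouse as a random block (correlation 0.58 within a mouse) 16 were called lower, 14 of the 17 among them. An exact permutation of 4 arrays cannot give a p below 0.333, so each p here leans on the spread shared across genes.

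**Figure D1:**
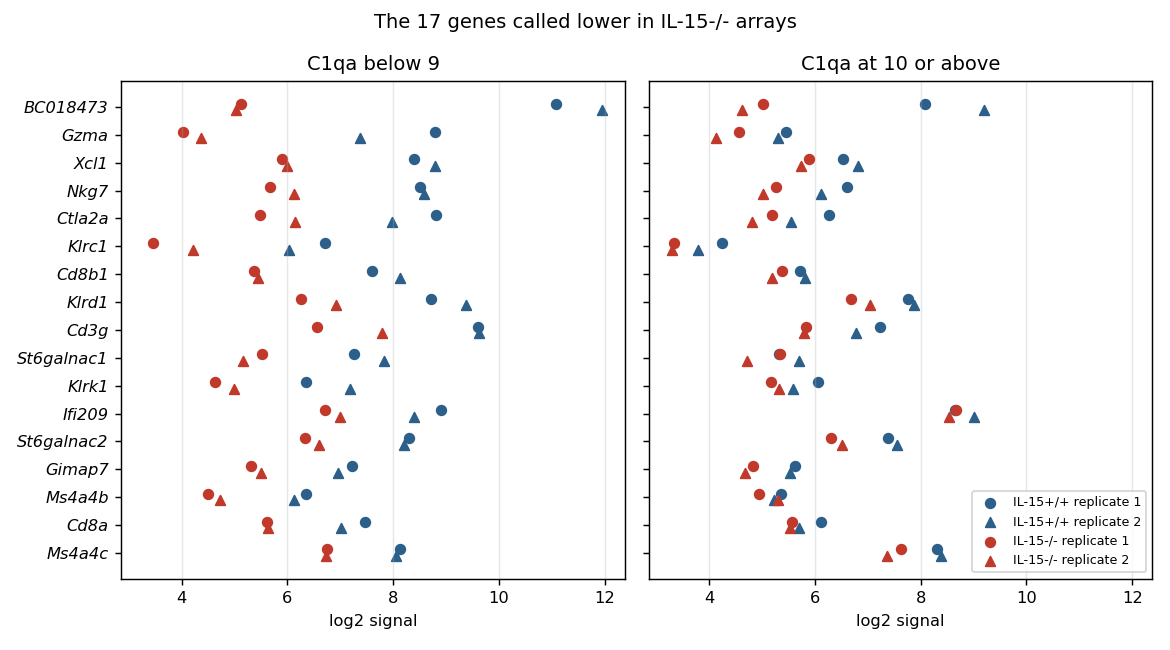
Log2 signal of the 17 genes called lower, ordered by the size of the difference, with 1 point per array; blue points are IL-15+/+ and red points IL-15-/-, circles replicate 1 and triangles replicate 2. In the low-C1qa arrays (left) both red points lie below both blue points for every gene, and the high-C1qa arrays (right) of the same mice are shown for comparison.

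Genes of the cytotoxic granule and its chemokine differed by the largest amounts among those with a known lymphocyte role. Gzma, a granule protease of killer lymphocytes, was at 8.80 and 7.37 in the IL-15+/+ and at 4.01 and 4.37 in the IL-15-/- arrays. Its difference was -4.78 in replicate 1 and -2.996 in replicate 2, with a mean of -3.89 (SE 0.38) and an adjusted p of 0.00267 from limma. Nkg7, a membrane protein of the same granules, was at 8.51 and 8.57 against 5.68 and 6.13 and fell by 2.64 (SE 0.24). Xcl1, a chemokine that NK and CD8 T cells secrete to draw in dendritic cells, was at 8.39 and 8.79 against 5.89 and 5.99 and fell by 2.65 (SE 0.22, adjusted p = 0.00140 from limma). In all 3 genes the arrays of a genotype lay closer to each other than to either array of the other genotype.

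The NK lectin-like receptors form heterodimers or homodimers that read ligands on target cells, and several fell. Klrd1 (CD94), the shared partner chain, was at 8.72 and 9.37 in IL-15+/+ and at 6.26 and 6.92 in IL-15-/- arrays, with differences of -2.465 in replicate 1 and -2.45 in replicate 2. Klrc1 (NKG2A), the inhibitory chain that pairs with it, was at 6.71 and 6.03 against 3.46 and 4.21. The activating receptor Klrk1 (NKG2D) was at 6.35 and 7.19 against 4.63 and 4.99, and its call was close to the threshold (adjusted p = 0.0445 from limma). It was lost on centring the arrays (adjusted p = 0.0687) and with the mouse as a random block (adjusted p = 0.1). In the gene order of chromosome 6 Klrk1 lies next to Klrd1, and 2 measured genes lie between Klrk1 and Klrc1, so the 3 calls come from a single receptor cluster.

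Calls among T cell genes were of CD8 and CD3 chains. Cd8b1 was at 7.60 and 8.13 in IL-15+/+ and at 5.36 and 5.44 in IL-15-/- arrays, a difference of -2.46 (SE 0.23, adjusted p = 0.00190 from limma). Cd8a, its neighbour on chromosome 6, was at 7.47 and 7.02 against 5.62 and 5.63. Cd3g, a signalling chain of the T cell receptor, was at 9.60 and 9.62 against 6.55 and 7.79, with the IL-15-/- array of replicate 2 the nearer to the IL-15+/+ arrays. Cd4, the coreceptor of helper T cells, lay between 5.33 and 5.71 in all 4 arrays, and its genotypes overlapped. These values are below the median signal of each array (5.79 to 6.06), so they say little about helper T cells.

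The largest difference of all was in BC018473, a transcript of unnamed function. It was at 11.09 and 11.95 in the IL-15+/+ and at 5.12 and 5.04 in the IL-15-/- arrays, and fell by 6.44 (SE 0.37, adjusted p = 4.99e-05 from limma). In the RefSeq gene order of chromosome 11 it lies between the sialyltransferase genes St6galnac2 and St6galnac1, and both were called. St6galnac1 was at 7.26 and 7.83 against 5.52 and 5.15, and St6galnac2 at 8.30 and 8.21 against 6.33 and 6.60. Of the other genes measured around the 3, Cygb, a globin gene, had a difference of -0.995 that was not called (adjusted p = 0.592 from limma), and the rest differed by between -0.33 and 0.31.

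The remaining calls were Ctla2a, a cysteine protease inhibitor first described in activated T cells (-2.58), the interferon-inducible gene Ifi209 (-1.80), Gimap7, a GTPase gene of lymphocytes (-1.69), and the membrane protein genes Ms4a4b (-1.63) and Ms4a4c (-1.34), which are neighbours on chromosome 19. With the mouse as a random block, Ifi209 and Ms4a4c were not called (adjusted p = 0.0507 and 0.0507 from limma). St6galnac2, Gimap7, Ms4a4b, Cd8a and Ms4a4c had the smallest differences of the 17 and are named so that every call is shown. Over the 17 the median difference was -2.24 in replicate 1 and -1.83 in replicate 2, a likeness that choosing genes on these arrays favours. The calls of BC018473, Gzma, Xcl1, Nkg7 and Cd8b1 held with any 1 of the 4 arrays left out. Each of the other 12 calls ended without at least 2 of the arrays taken 1 at a time. Without the IL-15-/- array labelled CD16/32HI, 5 genes were called lower, the 5 just named. When the replicate 2 array lacking IL-15 was left out, 12 were called lower, and leaving out either IL-15+/+ array gave 11. Where the arrays were taken by their CD16/32LO label instead, 3 genes were called, namely BC018473, Xcl1 and Cd8b1.

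Promoter windows were read because many of the called genes are expressed by the same lymphocytes. RefSeq windows (GRCm38.p6) of 250 bases before to 50 bases after the start were found for 12 of the 17 genes, 13 windows in all. In all, 3 motif types of factors known in NK and CD8 T cells were searched on both strands, and no 2 matches overlapped in these windows. A Runx-type motif (TGTGGT) was in 7 of the 13 windows (53.8%) and in 16.8% of all 32851 windows. A STAT5-type motif (TTCNNNGAA) was in 4 windows of 3 genes (30.8%, against 8.3%), the 2 windows of Ctla2a overlapping and sharing 1 match, and a T-box-type motif (GGTGTGA) in 2 (15.4%, against 3.98%). Of these windows 4 with a Runx-type match are shown, of the granule genes Nkg7 and Gzma, of Xcl1 and of Klrk1, with matches in capitals on the strand of the gene. They are Nkg7 at chr7:43436888-43437187 (plus strand), Xcl1 at chr1:164935473-164935772, Gzma at chr13:113100932-113101231 and Klrk1 at chr6:129623815-129624114 (all minus strand).
Nkg7: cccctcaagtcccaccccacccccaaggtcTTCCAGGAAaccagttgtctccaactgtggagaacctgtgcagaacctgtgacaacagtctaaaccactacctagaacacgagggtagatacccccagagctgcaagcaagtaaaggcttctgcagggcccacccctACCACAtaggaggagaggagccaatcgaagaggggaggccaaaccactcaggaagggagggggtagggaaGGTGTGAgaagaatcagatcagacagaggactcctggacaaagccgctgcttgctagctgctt
Xcl1: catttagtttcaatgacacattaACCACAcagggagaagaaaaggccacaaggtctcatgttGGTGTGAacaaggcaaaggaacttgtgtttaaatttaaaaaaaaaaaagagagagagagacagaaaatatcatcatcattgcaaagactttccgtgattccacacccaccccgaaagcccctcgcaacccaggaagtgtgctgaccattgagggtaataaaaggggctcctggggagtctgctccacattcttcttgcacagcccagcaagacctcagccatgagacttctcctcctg
Gzma: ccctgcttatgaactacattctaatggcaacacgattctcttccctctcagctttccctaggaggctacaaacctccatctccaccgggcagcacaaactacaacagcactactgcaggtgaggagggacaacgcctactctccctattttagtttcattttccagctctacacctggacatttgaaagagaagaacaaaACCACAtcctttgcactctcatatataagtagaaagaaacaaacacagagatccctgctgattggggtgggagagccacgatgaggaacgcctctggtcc
Klrk1: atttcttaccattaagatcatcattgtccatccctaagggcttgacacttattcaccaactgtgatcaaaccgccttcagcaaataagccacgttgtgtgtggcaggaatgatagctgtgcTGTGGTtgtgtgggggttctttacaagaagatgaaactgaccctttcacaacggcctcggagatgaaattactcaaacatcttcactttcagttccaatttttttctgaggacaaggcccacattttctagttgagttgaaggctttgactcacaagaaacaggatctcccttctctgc
The Nkg7 window held 1 match of each of the 3 types, that of Xcl1 held a Runx-type and a T-box-type match, and those of Gzma and Klrk1 held a Runx-type match alone. In the lists of which these genes are members, the Runx-type motif was in 13 of 20 windows of cytotoxic granule genes, 10 of 20 of NK cell genes and 3 of 22 of T cell receptor genes. A match describes the letters of the window and not a bound site.

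Most members of the NK cell list were lower without IL-15, and some were not. Of its 19 measured genes, 3 were called lower and in 14 both arrays without IL-15 lay under both arrays with it, a separation found in 6.03% of all probe sets. The list had a median difference of -0.82 (-0.63 in replicate 1 and -0.85 in replicate 2). The activating receptor Ncr1 (-0.82), the transcription factor Eomes (-0.77) and the receptor Klrb1b (-1.43) were lower in both replicates and were not called. Klrg1, a receptor of mature NK and effector T cells, was at 3.87 and 3.43 against 3.59 and 4.12, which overlap. Those values lie far below the median signal of each array (5.79 to 6.06), so they say little about Klrg1. The list itself was dim, with median levels of 5.40 and 5.76 in the IL-15+/+ and 4.70 and 4.81 in the IL-15-/- arrays. Cd244a (2B4), which myeloid cells also express, was higher in both IL-15-/- arrays, by 0.57.

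In the cytotoxic granule list, 3 of 20 genes were called lower. Of the 20, 11 lay below and 2 above both IL-15+/+ arrays (6.03% and 26.4% of all probe sets), and the median was -0.62. It was -0.995 in replicate 1 and -0.21 in replicate 2, and leaving out the IL-15+/+ arrays of replicates 1 and 2 in turn gave -0.35 and -0.92. Gzmb, whose human promoter drives Tax in these mice, was at 8.29 and 6.43 in the IL-15+/+ and at 4.50 and 5.40 in the IL-15-/- arrays, and its difference of -2.41 (SE 0.56) was not called, the IL-15+/+ arrays being 1.86 apart. Perforin (Prf1), which opens the target membrane for granzymes, differed by -0.28. The 2 members above both IL-15+/+ arrays were Srgn (0.36), the granule proteoglycan that neutrophils also hold, and Lamp1 (0.46), a lysosomal protein of all cells. The list thus holds genes that other cells also express, and which cells gave these 2 signals was not tested.

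In the T cell receptor and coreceptor list, 3 of 22 genes were called lower, with a median of -0.62. Of the 22, 15 lay below and 0 above both IL-15+/+ arrays (6.03% and 26.4% of all probe sets). Thy1, a surface protein of T cells, was at 8.46 and 9.09 against 6.25 and 7.22, and narrowly missed the threshold (adjusted p = 0.0577 from limma), and Cd3d differed by -2.41 and -1.61 in replicates 1 and 2. Cd3e differed by -0.66, and Cd5, Bcl11b, Gata3 and Lef1 by between 0.00 and 0.12. The summed linear signal of the list was 3600 and 3311 in the IL-15+/+ and 1210 and 1575 in the IL-15-/- arrays. Such sums overlapped between genotypes for the NK cell list (2584 and 3193 against 1892 and 2706). They also did for the cytotoxic granule list (11181 and 8664 against 9346 and 10809). As the arrays read whole sorted fractions, fewer lymphocytes and less lymphocyte RNA per cell cannot be told apart from these values. By flow cytometry of tumor homogenates the study found fewer CD8 cells without IL-15, a count in whole tumors and not in these fractions.

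Of 24 receptors, cytokines and survival genes of the common gamma chain family, none was called, 3 lay below both IL-15+/+ arrays (6.03% of all probe sets did) and 6 above (26.4% of all). Il7r, the IL-7 receptor chain of resting lymphocytes, was at 6.37 and 6.45 in the IL-15-/- arrays and about 1 higher in both IL-15+/+ arrays (difference -1.08), and the survival gene Bcl2 at 7.39 and 7.09 against 5.70 and 6.43. Il2rb, the receptor chain that binds IL-15, was at 6.28 and 6.66 against 4.82 and 5.94. None of these 3 was called (adjusted p = 0.326, 0.405 and 0.843 from limma), and they are the 3 below both. Those above both were Il4ra, Il21, Socs3, Bcl2l1, Mcl1 and Pim1, by 0.21 to 0.48. The receptor alpha chain Il15ra (0.11), Jak1 (0.10), Stat5a (0.06) and Stat5b (0.11) overlapped between the genotypes. Over the whole list the median was 0.08, and -0.01 after centring, against 0.125 and 0.034 over all probe sets. Nor did the 20 measured genes nearest to Il15 on its chromosome stand apart, with a median of 0.115 and 0 calls.

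**Figure D2:**
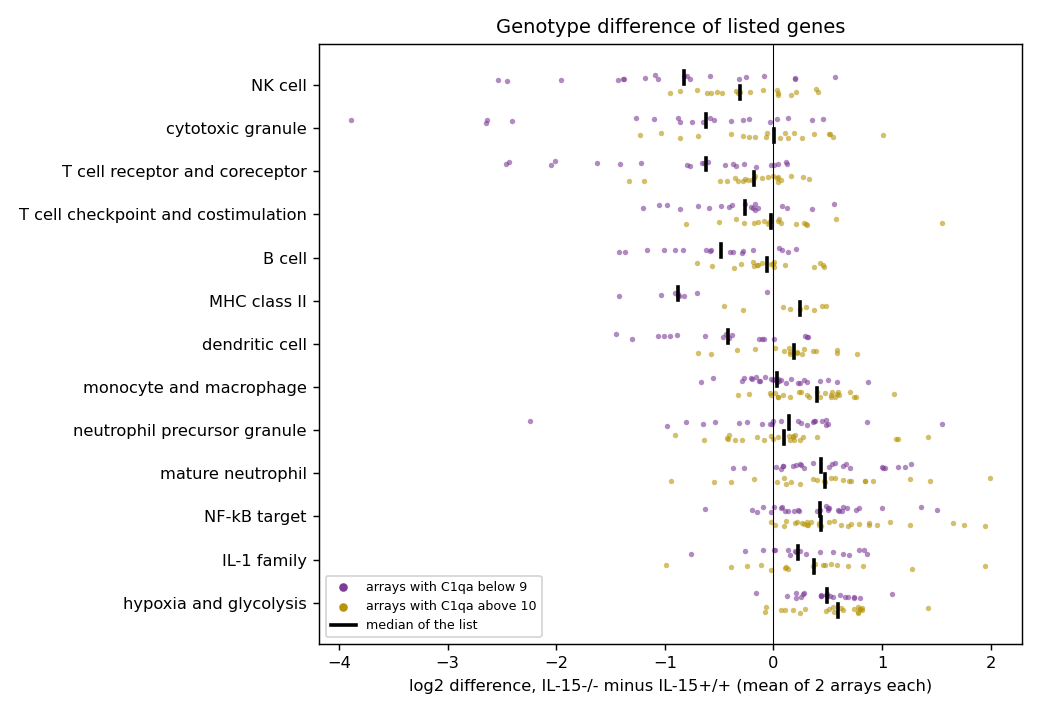
Log2 difference between the means of 2 IL-15-/- and 2 IL-15+/+ arrays for each member of 13 gene lists, in purple for arrays with C1qa below 9 and in yellow for the other arrays, with a black bar at the median of the list. In the low-C1qa arrays the NK cell, cytotoxic, T cell receptor and MHC class II medians lie between -0.88 and -0.62, and the hypoxia, mature neutrophil and NF-kB medians between 0.42 and 0.49.

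Genes of MHC class II, which present peptides to CD4 T cells on B cells, dendritic cells and macrophages, were lower in both IL-15-/- arrays almost throughout, and none was called. Of 9 measured genes, 8 were separated in this direction, as were 6.03% of all probe sets. The median was -0.88 (-0.96 in replicate 1 and -0.73 in replicate 2). Cd74, the invariant chain, was at 10.16 and 10.12 in the IL-15+/+ and at 8.93 and 9.28 in the IL-15-/- arrays (difference -1.03, SE 0.25, adjusted p = 0.477 from limma). H2-Ab1, a class II beta chain, was at 11.19 and 11.59 against 10.31 and 10.71, and Ciita, the transactivator of the class II genes, at 6.73 and 6.78 against 5.97 and 6.14. The exception was Ctss, the protease that trims the invariant chain (-0.06). The count was 8 of 9 also after centring the arrays on their medians, with 8 left when the replicate 1 array lacking IL-15 was dropped and 9 when that of replicate 2 was. By the CD16/32LO label the direction turned, with a list median of 0.27, Cd74 at 0.27 and H2-Ab1 at 0.17.

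Of 18 B cell genes 7 lay below both IL-15+/+ arrays and 0 above (6.03% and 26.4% of all probe sets), and none was called. The list had a median of -0.85 in replicate 1 and -0.05 in replicate 2. Ms4a1 (CD20) was at 8.09 and 6.71 in the IL-15+/+ and at 5.54 and 6.52 in the IL-15-/- arrays, so that the IL-15+/+ array of replicate 1 stood above the rest. The list median, -0.485, was -0.12 without that array and -0.77 when the other IL-15+/+ array was dropped. Of 18 dendritic cell genes 7 were below and 3 above both, with a median of -0.42 that became -0.66 and -0.071 when the IL-15+/+ arrays of replicates 1 and 2 were dropped in turn. The growth factor receptor Flt3 was at 6.52 and 8.21 against 5.79 and 6.34, with the IL-15+/+ array of replicate 2 highest. The monocyte and macrophage list (27 genes) had a median of 0.03 with 4 members below and 4 above both, and its median turned to -0.06 with each array centred and was 0.86 by the CD16/32LO label. The part of these cell types in the class II difference was not tested.

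**Figure D3:**
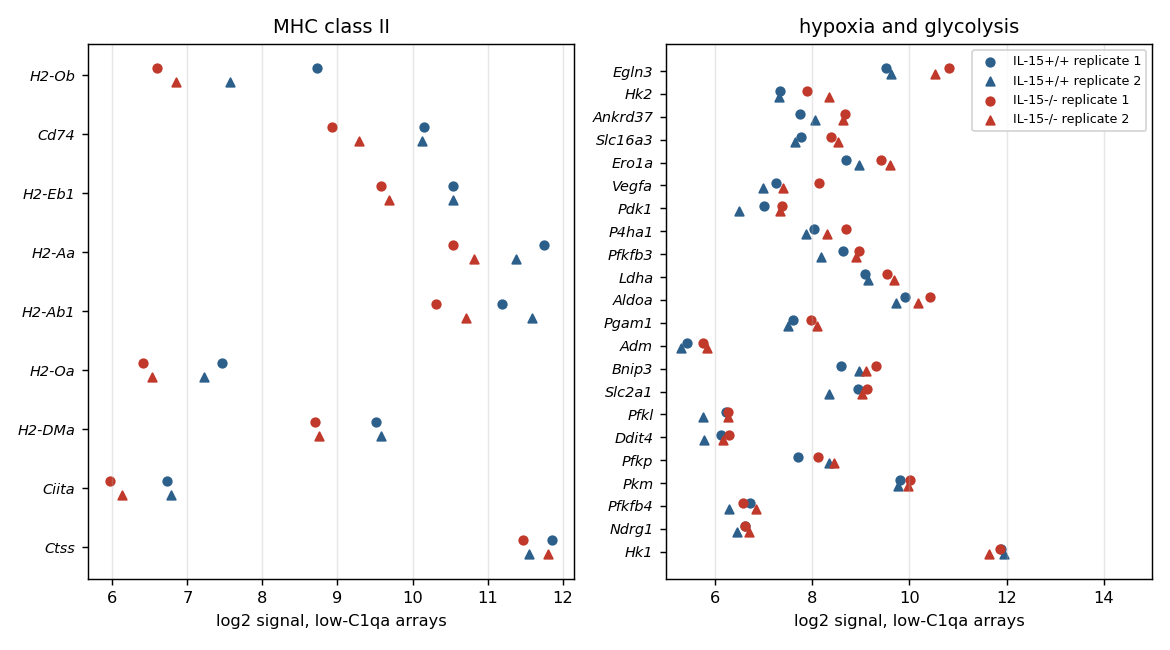
Log2 signal of each measured gene of the MHC class II list (left) and of the hypoxia and glycolysis list (right) in the 4 low-C1qa arrays, with blue for IL-15+/+, red for IL-15-/-, circles for replicate 1 and triangles for replicate 2. Both red points lie below both blue points in 8 of 9 class II genes, and above both blue points in 18 of 22 hypoxia and glycolysis genes, by small amounts in most.

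On the higher side no gene passed the test, the lowest adjusted p being 0.0799 for Ece1. Both IL-15-/- arrays lay above both IL-15+/+ arrays in 26.4% of all probe sets, and in 19.1% after centring (below in 6.03% and 11.2%), so that a higher value in both arrays is common here. Genes of hypoxia and glycolysis exceeded this share, with 18 of 22 above both (16 after centring) and 1 below, and a median of 0.49 (0.40 in replicate 1 and 0.54 in replicate 2). Egln3, an oxygen-sensing prolyl hydroxylase, was at 9.53 and 9.62 in the IL-15+/+ and at 10.81 and 10.52 in the IL-15-/- arrays (difference 1.09, SE 0.25, adjusted p = 0.434 from limma), and by the CD16/32LO label it differed by -0.32. The glycolytic enzyme Hk2 (0.80), the lactate transporter Slc16a3 (0.74), the lactate dehydrogenase gene Ldha (0.49) and the angiogenic factor Vegfa (0.66) had separated values as well. Hk1 was the only measured member below both IL-15+/+ arrays (-0.16). The list median was 0.59 in the high-C1qa arrays.

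Transcripts of mature neutrophils were at like or higher levels in the IL-15-/- arrays. Of 24 genes, 10 lay above both IL-15+/+ arrays and 0 below (26.4% and 6.03% of all probe sets), and none was called. The list had a median of 0.44, or 0.35 after centring, and one of 0.47 in the high-C1qa arrays. The median was 0.22 without the array labelled CD16/32HI and -0.46 by the CD16/32LO label. The calprotectin genes S100a8 (0.07) and S100a9 (0.09) and Csf3r (0.18) overlapped between genotypes. Acod1, which makes itaconate, was at 7.86 and 6.71 in the IL-15+/+ and at 8.61 and 8.49 in the IL-15-/- arrays, and Mmp9, a matrix protease of neutrophil granules, at 8.46 and 8.56 against 9.18 and 9.86. The summed linear signal of the list was 48421 and 45194 in the IL-15+/+ and 63251 and 55717 in the IL-15-/- arrays. This shift of the neutrophil markers lay beside the lymphocyte differences, and its part in them was not tested.

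Granule genes of neutrophil precursors went both ways. Ngp, a protein of secondary granules, was at 8.70 and 10.97 in the IL-15+/+ and at 7.52 and 7.67 in the IL-15-/- arrays, and Lcn2, an iron-binding granule protein, differed by -0.80. Ly6g, the surface antigen of mouse neutrophils, was at 5.28 and 5.82 against 7.42 and 6.78, higher by 1.55 (adjusted p = 0.420 from limma), but by the CD16/32LO label it differed by -0.31. The list as a whole had 4 members below and 10 above both IL-15+/+ arrays among 24 (6.03% and 26.4% of all probe sets). Its median was 0.15.

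No inflammatory transcript was called. In the NF-kB target list 11 of 29 genes (37.9%, against 26.4% of all probe sets) lay above both IL-15+/+ arrays and 1 below. The median was 0.43, but 0.15 without the IL-15+/+ array of replicate 2 and 0.025 by the CD16/32LO label. The neutrophil-attracting chemokine Cxcl3 was at 8.63 and 8.52 in the IL-15+/+ and at 10.51 and 9.65 in the IL-15-/- arrays (difference 1.51, SE 0.28, adjusted p = 0.157 from limma), and Ccl3, which attracts monocytes and NK cells, at 10.15 and 9.52 against 11.62 and 10.77. In the IL-1 family, 7 of 18 genes (38.9%) were above both, among them Il1a (0.79, but -0.11 by the CD16/32LO label) and the inflammasome sensor Nlrp3 (0.83), and Il18r1 was below both (-0.76). The median of the family was 0.225, and -0.056 by the label. The IL-1 receptor antagonist Il1rn (0.21) and the decoy receptor Il1r2 (0.24) overlapped. Arg1 and Nos2, which both consume arginine, were higher by 0.97 and 1.12, and by the CD16/32LO label by 2.29 and 0.89.

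The receptors of the sort gate did not separate the array labelled CD16/32HI from the other low-C1qa arrays. Fcgr2b, which encodes CD32, was at 9.13 in it and at 8.87 to 9.31 in the other 3, and Fcgr3, which encodes CD16, at 10.86 and 10.64 to 11.14. In the high-C1qa arrays Fcgr2b was at 10.38 to 10.98. The summed linear signal of the 5 measured Fc receptor genes overlapped, at 5721 to 9841 in the high-C1qa and 6062 to 8252 in the low-C1qa arrays. Between genotypes Fcgr2b differed by -0.25 and Fcgr3 by 0.22, and no member of the 5 measured Fc receptor genes was called.

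The other lists held no calls. Checkpoint and costimulatory receptors of T cells had 8 of 19 members below and 2 above both IL-15+/+ arrays (6.03% and 26.4% of all probe sets). Their median was -0.26 (-0.62 in replicate 1 and 0.07 in replicate 2). It was -0.125 without the array labelled CD16/32HI, -0.403 without the other IL-15-/- array, and -0.091 and -0.67 when the IL-15+/+ arrays of replicates 1 and 2 were dropped in turn. Tigit, an inhibitory receptor of T and NK cells, was at 7.41 and 7.17 in the IL-15+/+ and at 6.41 and 6.06 in the IL-15-/- arrays. The median of interferon gamma targets had a different sign in each replicate (-0.63 and 0.37), and type I interferon response genes had a median of 0.005, or -0.086 after centring. The median was -0.06 for MHC class I, 0.12 for chemokines and their receptors, 0.23 for arginine and suppressive mediators, -0.12 for the cell cycle, 0.18 for the BCL-2 family and 0.15 for immediate early genes. Markers of other cell types lay near the 0.125 of all probe sets, at 0.17 for eosinophils, mast cells and basophils, 0.14 for keratinocytes, 0.13 for fibroblasts and endothelium and 0.09 for erythrocytes and platelets (-0.002 after centring).

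**Figure D4:**
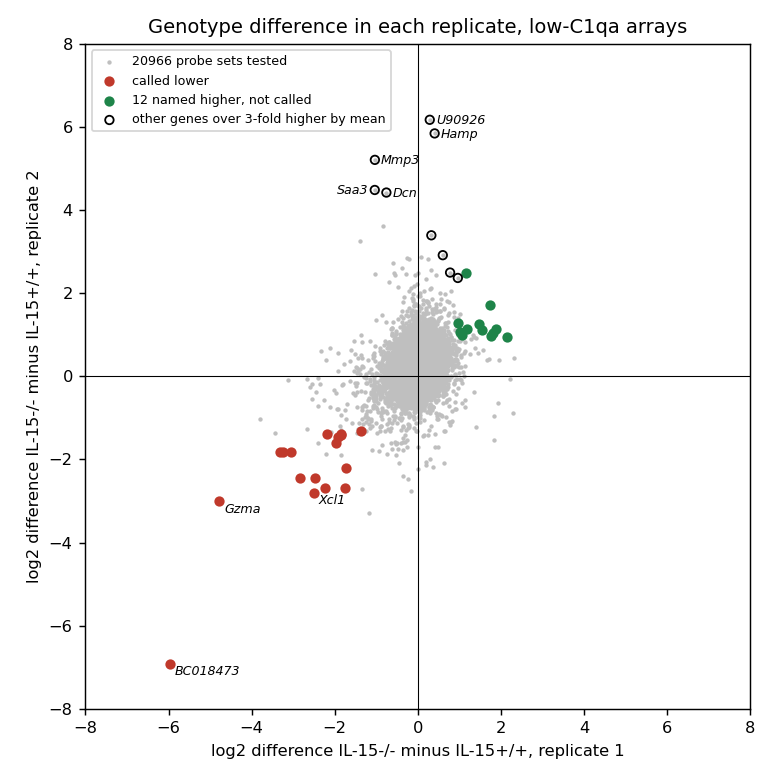
Genotype difference in log2 signal (IL-15-/- minus IL-15+/+) in replicate 1 against replicate 2 for the 20966 probe sets tested in the low-C1qa arrays (grey), with the 17 genes called lower in red, the 12 genes named on the higher side in green and the other genes over 3-fold higher by mean signal as open circles. The red points are lower in both replicates, whereas Hamp and U90926 lie near 0 in replicate 1 and near 6 in replicate 2.

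The 12 genes named on the higher side were picked, among those separated between genotypes, for the size of their smaller within-replicate difference, and they are a description. They were Stfa3, Ccl3, Olfr460, Ddias, Cxcl3, Cd300ld, Ece1, Mif, Mir186, Mirt2, Nos2 and Ly6g, with differences of 1.03 to 1.83. By the CD16/32LO label Ly6g (-0.31) and Mirt2 (-0.19) turned in direction and Ccl3 was at 0.11. Ece1, an endothelin-converting protease, was at 5.85 and 6.14 in the IL-15+/+ and at 7.66 and 7.20 in the IL-15-/- arrays (difference 1.44, SE 0.23). Cd300ld, a receptor of myeloid cells, was at 9.52 and 9.62 against 11.08 and 10.73. Mif, a cytokine made by many cells, was at 10.65 and 10.17 against 11.66 and 11.23, higher by 1.01 and 1.06 in replicates 1 and 2.

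The study kept changes over 3-fold by mean signal, and at that size 26 genes were lower (0.124%) and 11 higher (0.0525%). Of the 26, all were separated between genotypes and 25 were lower by over 1 in both replicates, the exception being Scd1, a fatty acid desaturase. Of the 11, only Stfa3 and Olfr460 were higher by over 1 in both replicates. Hamp, which encodes the iron hormone hepcidin, was at 3.32 and 2.91 in the IL-15+/+ and at 3.72 and 8.75 in the IL-15-/- arrays, and U90926 rested on the same array (4.89 and 10.47 in the IL-15-/- arrays, with a difference of 0.29 in replicate 1 and 6.18 in replicate 2). The matrix protease Mmp3 (6.15 and 10.26), the matrix proteoglycan Dcn (5.75 and 10.45) and the acute-phase protein Saa3 (8.09 and 11.22) were likewise highest in the IL-15-/- array of replicate 2, with 5.05 to 7.18, 6.03 to 6.51 and 6.74 to 9.12 in the IL-15+/+ arrays. The high-C1qa array of the same mouse held them high as well, with Hamp at 7.84, U90926 at 8.99, Mmp3 at 9.46, Dcn at 9.25 and Saa3 at 10.73. Without the low-C1qa IL-15-/- array of replicate 2, 9 genes were over 3-fold higher and 45 lower, and leaving out the CD16/32HI array instead gave 57 and 26. Dropping the IL-15+/+ array of replicate 1 gave 25 higher and 50 lower, and dropping that of replicate 2 gave 17 and 46. Over all probe sets, 48 (0.229%) were lower and 11 (0.0525%) higher by over 1 in both replicates.

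**Figure D5:**
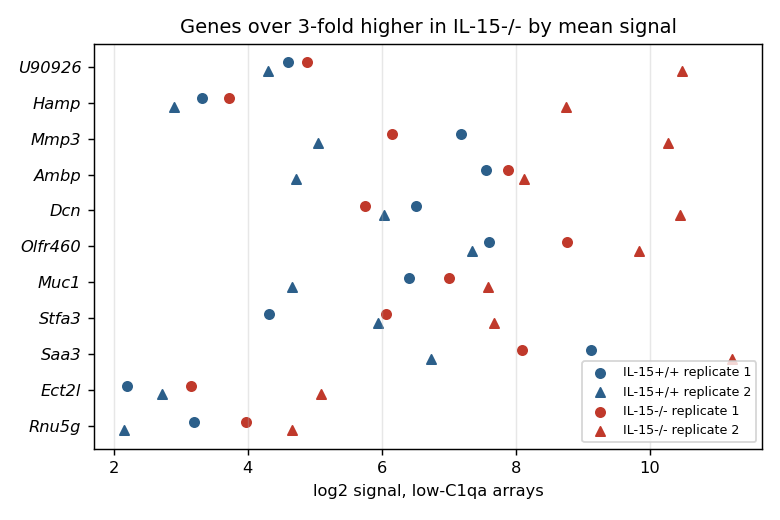
Log2 signal in the 4 low-C1qa arrays of the 11 genes over 3-fold higher in IL-15-/- by mean signal, with blue for IL-15+/+, red for IL-15-/-, circles for replicate 1 and triangles for replicate 2. In U90926, Hamp, Mmp3, Dcn and Saa3 the red triangle lies apart from the other 3 points.

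Whether the genotype difference was larger in the low-C1qa arrays was tested on the difference between the low-C1qa and the high-C1qa array of each mouse, 2 mice against 2. Limma called 0 of 20966 probe sets (0.0%), and 8.85% had an unadjusted p under 0.05. All 17 called genes were also lower on average in the high-C1qa arrays of IL-15-/- mice, with a median difference of -0.845, so the difference was not shown to be confined to the low-C1qa arrays. BC018473, for example, was at 8.08 and 9.19 in the IL-15+/+ and at 5.03 and 4.61 in the IL-15-/- high-C1qa arrays. Its difference in the low-C1qa arrays minus that in the high-C1qa arrays was -2.62 (SE 0.22, adjusted p = 0.0681 from limma). The other 16 had adjusted p values up to 0.555, and since the same low-C1qa arrays had chosen the 17, their values here are no independent test. The MHC class II list had stood out in the same low-C1qa arrays, though none of its genes was called. Its values here are therefore no independent test either. Its level also went with C1qa, with list medians of 8.93 to 10.16 in the low-C1qa and 11.08 to 11.99 in the high-C1qa arrays. Of its 9 genes, 8 had an unadjusted p under 0.05 from limma, with a median of -1.07, and the lowest adjusted p was 0.276 for Cd74. In the high-C1qa arrays the class II median was 0.25 (-0.08 in replicate 1 and 0.62 in replicate 2). For hypoxia and glycolysis 2 of 22 genes had an unadjusted p under 0.05, with a median of -0.10. These counts shifted with the mice kept, with 237 probe sets called lower and 206 higher without the IL-15+/+ mouse of replicate 1, 11 and 3 without that of replicate 2, and 0 without either IL-15-/- mouse.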

How the data were processed

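Each deposited value is the log2 signal of 1 probe set in 1 array (Affymetrix mouse Gene Chip, Whole Transcript array, total RNA of sorted tail tumor cells); the authors background corrected, normalized and summarized the arrays with RMA in Affymetrix Expression Console; versions are not given in the sources used here. The number of arrays limits the precision, and nothing beyond genotype and replicate number ties arrays to mice. Of 35557 probe sets, 21789 carry 1 symbol in the platform annotation, 1621 several and 12147 none. The 20966 with 1 symbol outside X and Y were tested with limma 3.58.1 (R 4.3.3) in 4 groups, low or high C1qa by genotype, and for lists the brightest probe set of a gene was used. The script was tested on simulated data. Genes named are the called ones, those with the largest smaller within-replicate difference among separated ones to 12 a direction, and up to 6 members a list with any needed to show a mixed list. Members, lists and motifs were chosen with earlier results of these data known. Alternatives were scaling, blocks, filters, labels and leaving out arrays.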

Additional observations from a re-analysis of the deposited data

Results flagged for a closer look

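Signals outside the tested probe sets also separated the genotypes in the low-C1qa arrays. When every probe set of the array was fitted, the log2 difference was 6.32 for Xist, -6.19 for Eif2s3y, -3.18 for Kdm5d and -3.05 for Uty (limma adjusted p = 0.000198, 0.000175, 0.00696 and 0.0458). Xist is expressed from the inactive X chromosome and the other 3 from the Y chromosome, so the tumors of both IL-15-/- mice carried female and those of both IL-15+/+ mice male RNA, and the same held in the high-C1qa arrays. A pair of probe sets without a gene name in the annotation used were called as well. Probe set 10608138 was at 9.61 and 9.36 in the IL-15+/+ and at 4.34 and 4.03 in the IL-15-/- arrays (-5.30), and probe set 10343755 at 7.54 and 7.62 against 3.92 and 3.28 (-3.97). Both were also higher in every IL-15+/+ than in every IL-15-/- high-C1qa array.

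Of the genes named, 2 had genotype differences of opposite sign in the low-C1qa and the high-C1qa arrays of both replicates. Ly6g was higher by 1.55 in IL-15-/- low-C1qa arrays and differed by -0.08 in the high-C1qa arrays. In the latter it was at 3.87 and 4.54 in the IL-15+/+ and at 3.72 and 4.53 in the IL-15-/- arrays. These values overlap and lie far below the array medians (5.78 to 6.06), so the sign there carries little meaning. The difference between the 2 sets of arrays, 1.63, was not called (limma adjusted p = 0.426). For Il15 the differences were -0.22 and 0.04, and the genotypes overlapped in both sets of arrays.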

How the results depend on the processing

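The 17 calls lower and 0 higher changed as follows. Counts of lower and higher calls were 20 and 0 with each array centred on its median (16 of the 17 kept), 21 and 0 with quantile normalization (16 kept), 18 and 0 with trend and robust (17 kept), 16 and 0 with the mouse as a random block (14 kept), 30 and 6 with the 4 low-C1qa arrays alone (17 kept) and 30 and 2 where the sets of arrays with equal values were a block (14 kept). They were 21 and 1 with X and Y kept, 11 and 0 with only probe sets above the median brightness, where 6 of the 17 were not tested, 9 and 1 with every probe set of the file, and 3 and 0 by the CD16/32LO label. The methods' 1-way comparison gave 0 and 0 after Benjamini-Hochberg. Leaving out 1 array gave 5 to 12 lower and 0 to 2 higher. With the replicate block 22 were lower and 0 higher, all 17 among them, and it ended no call. Replicate deviations correlated at 0.29 between genotypes over a single pair of numbers. Same-numbered mice were of the same age, and the labels name no shared litter, batch or day.

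The low-minus-high test called 0 probe sets, 1 lower with quantile normalization, and 0 to 237 lower and 0 to 206 higher without 1 mouse. With the replicate block it called 0.

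Of 28 list medians, 10 kept their sign in every setting and 18 turned in at least 1. By the CD16/32LO label they turned to 0.27 for MHC class II, -0.46 for mature neutrophils, -0.47 for neutrophil precursors, 0.41 for the cell cycle, -0.056 for the IL-1 family, -0.132 for the gamma chain family, -0.02 for immediate early genes and -0.042 for erythrocytes and platelets. Centring turned the monocyte and macrophage median, 0.03, to -0.061, gamma chain to -0.01, type I interferon to -0.086 and erythrocytes to -0.002. With quantiles they turned to -0.105 for monocytes, -0.063 for gamma chain, -0.152 for type I interferon, -0.002 for immediate early genes, -0.001 for keratinocytes, -0.0 for fibroblasts, -0.044 for erythrocytes and -0.042 for neighbours of Il15. With the set block they were -0.195 for monocytes, -0.238 for type I interferon, -0.198 for chemokines, -0.063 for the BCL-2 family, -0.071 for fibroblasts, -0.082 for erythrocytes and -0.057 for Fc receptors, and among bright probe sets -0.013 for neutrophil precursors and -0.542 for keratinocytes. With 1 array left out the medians that turned ran from -0.151 to 0.181 for monocytes, -0.417 to 0.075 for interferon gamma, -0.142 to 0.223 for type I interferon, -0.295 to 0.002 for MHC class I, -0.079 to 0.259 for chemokines, -0.036 to 0.243 for keratinocytes, -0.087 to 0.296 for fibroblasts, -0.165 to 0.409 for erythrocytes and -0.02 to 0.173 for neighbours of Il15. The same ranges were -0.93 to -0.66 for NK cells, -0.92 to -0.35 for cytotoxic granules and 0.22 to 0.46 for mature neutrophils.

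In 45 of the 420 medians so recomputed the sign was kept but the value moved by more than the replicate spread, in 16 lists. Among them were, by the label, -0.64 for NK cells, 0.33 for hypoxia, 0.864 for monocytes, -0.191 for dendritic cells and 0.025 for NF-kB targets, among bright probe sets -1.43 for NK cells and -1.52 for T cell receptor genes, with the set block -1.145 for MHC class II, 0.38 for hypoxia, 0.186 for NF-kB targets and 0.107 for the IL-1 family, and with quantiles 0.32 for hypoxia. Of single genes checked, those that turned by the label were Mirt2 (-0.189), Ly6g (-0.306), Il1a (-0.106), Il1b (-0.04), Cd74 (0.271), H2-Ab1 (0.169), Egln3 (-0.323), Fcgr2b (0.672) and Top2a (0.179), and Il15 ran from -0.456 to 0.01 with 1 array left out. None of these was among the 17. The cause of these changes was not tested.

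Depth is not defined for arrays, and with 2 arrays a genotype small differences of dim probe sets cannot be told from noise.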
